A study of Mus musculus with 8 samples.

Results

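The lysosomal enzymes and membrane proteins described here are 38 genes chosen by symbol for what they encode and found in the deposited table of mouse cardiac fibroblasts through their Ensembl identifiers. They were 38 of 54532 genes in the table and 38 of 12994 genes tested. The set holds 9 cathepsins, 2 other proteases, 9 glycosidases, 3 sulfatases, 6 genes grouped as lipid enzymes and cofactors (Grn and Npc2 among them), 6 membrane proteins and the transcription factor Tfeb. Ctss and Laptm5 are the remaining 2 and are described apart, because macrophages are known to express both at high levels. Medians over 36 genes leave them out, while counts of called members include them unless 36 is stated. Every one of the 38 passed the filter on low values, and the lowest value of any was 1.29 FPKM, for Arsb in 1 library. FPKM is a read count per gene corrected for the gene's length and the library's depth, so that levels can be compared between genes.

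Cardiac fibroblasts, which make the matrix of the heart, carried either a control vector or overexpressed EphrinB2, a ligand held in the membrane and the product of Efnb2. Both were cultured in complete medium or under osteogenic differentiation, and all RNA was taken at day 7. The 4 groups are vector cells in complete medium, vector cells in osteogenic medium, EphrinB2 cells in complete medium and EphrinB2 cells in osteogenic medium, with 2 libraries each. The strain and age of the mice, the composition of the osteogenic medium and the promoter of the EphrinB2 construct were not stated in the sources used here. Labels tie no library to a separate culture, so p-values reflect the spread among these 8 libraries alone, and that spread may be technical.

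Estimated depth was 16493963 to 20550770 counted reads per library, and the lysosomal genes had from 160 reads for Arsb up to 43595 for Ctsb. For Efnb2, complete medium gave 5.56 and 6.30 FPKM in vector cells against 31.3 and 32.9 in EphrinB2 cells. Under osteogenic differentiation it had 1.27 and 1.39 FPKM in vector cells, against 5.02 in EphrinB2 library 1 and 18.3 in library 2. The 9 fibroblast markers were all detected, and their summed FPKM was lower in osteogenic medium. In vector cells it was 4993.8 to 5177.7 (complete) and 2810.0 to 2873.6 (osteogenic). EphrinB2 cells had 5293.2 to 6172.9 (complete) and 2948.8 to 3227.0 (osteogenic). All 22 macrophage markers were detected as well, with sums in vector cells of 1979.1 to 2249.2 (complete) and 4890.5 to 5115.4 (osteogenic). EphrinB2 complete library 2 and EphrinB2 osteogenic library 1 stood apart from their partners, with differences that followed exon length. Medians and counts of called members in EphrinB2 cells are therefore also given without both of them. A gap between 2 partners does not show which of them departed, so leaving out these 2 was a choice. Leaving out both of their partners instead was not run. The agreement with vector cells in the fit without these 2 may depend on that choice.

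Lysosomes are acid compartments in which proteases, glycosidases, sulfatases and lipid-cleaving enzymes break down material from endocytosis and autophagy. Most soluble enzymes are tagged with mannose 6-phosphate and carried there by receptors, while heavily glycosylated membrane proteins line the organelle. Many of these genes carry short promoter motifs with the core CACGTG, which Tfeb and its relatives bind when they enter the nucleus. Fibroblasts use lysosomes to turn over collagen and other matrix, and macrophages and osteoclasts are rich in them.

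A promoter motif of lysosomal genes is shown first, which some of the members hold. RefSeq windows of 300 bases on GRCm38.p6, from 250 before to 50 after a gene's start, were available for 35 of the 38 genes; Ctsb, Ctsh and Asah1 had none. CACGTG, which reads the same on both strands, occurred in the window of 12 of the 35, against 8.09% of 27025 genes with a window. GTCACGTG, searched on both strands and containing the core, occurred in 9 of the 35 and in 2.55% of all genes. The palindrome TCACGTGA, which also contains the core, occurred in 4 of the 35 (Ctsa, Ctsd, Gla and Mcoln1) and in 1.12% of all genes. These are matches of letters, not measured binding. Lamp1 held the core 4 times, 61 to 15 bases before its start, and the stretch at chr8:13159090-13159160 (+ strand) is shown with the core in capitals.
Lamp1: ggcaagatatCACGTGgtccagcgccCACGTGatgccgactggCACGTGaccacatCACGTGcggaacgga
Single sites of 26 bases follow for genes whose values are described below, again 5′ to 3′ on the gene's strand with the core in capitals. They lie at chr8:3500464-3500489 for Mcoln1 and chr2:164833751-164833776 for Ctsa on the + strand, and at chr7:142387910-142387935 for Ctsd, chr12:102439126-102439151 for Lgmn, chrX:134601184-134601209 for Gla and chr15:89477425-89477450 for Arsa on the - strand.
Mcoln1: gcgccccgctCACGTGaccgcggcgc
Ctsa: agcaaactgtCACGTGatgcagatgc
Ctsd: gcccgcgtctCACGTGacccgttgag
Lgmn: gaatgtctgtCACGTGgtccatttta
Gla: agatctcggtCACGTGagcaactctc
Arsa: aactcagtgtCACGTGttgtctgctc
The sites of Ctsd, Lgmn, Gla, Mcoln1 and Arsa lie 98, 49, 194, 45 and 16 bases before the annotated RefSeq start, and that of Ctsa 12 bases before. Man2b1 and Scarb2, which passed the test in both kinds of cell below, had no CACGTG in their windows, nor did Ctss, Laptm5 or Tfeb.

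Lysosomal genes were expressed in every library at very different levels. Psap, which encodes the precursor of the saposins that help lipid hydrolases reach their substrates, and Ctsd, an aspartic protease, had the highest mean levels, 513 and 497 FPKM over the 8 libraries. The lowest means were those of Tfeb at 3.42 FPKM, Arsb at 3.75 and Mcoln1 at 4.83. Lamp1 and Laptm4a, both membrane proteins, followed the most abundant hydrolases with means of 297 and 282 FPKM. The 36 genes without Ctss and Laptm5 together made up 1.28% and 1.30% of summed FPKM in the complete libraries of vector cells and 1.32% and 1.38% in the osteogenic ones. For EphrinB2 cells the shares were 1.30% and 1.001% (complete) and 1.33% and 1.29% (osteogenic). EphrinB2 complete library 2 lay below the range of the other 7.

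**Figure D1:**
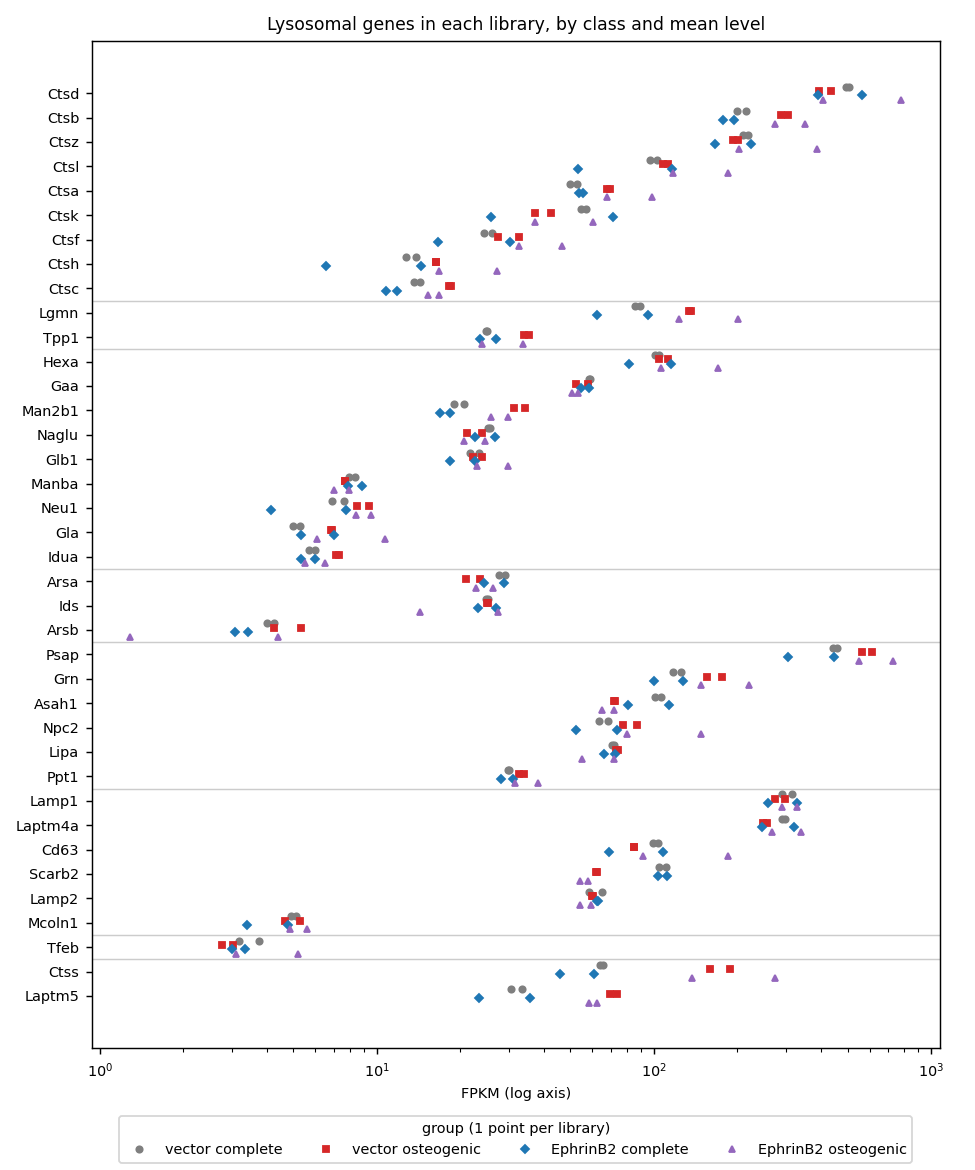
FPKM of each of the 38 genes on a log axis, 1 point per library, with colours and symbols for the 4 groups and grey lines between classes. Gene levels run from 1.29 FPKM for Arsb to 780.5 for Ctsd, and both libraries of each vector group lie close together while those of the EphrinB2 groups often do not.

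In vector cells, Man2b1, several proteases, Psap, Grn and Npc2 were higher in osteogenic medium, and Scarb2, Asah1 and Ctsk were lower. In the model of all 8 libraries, which tested log2(FPKM + 1) with limma and took an adjusted p of 0.05 as the threshold, Man2b1 and Laptm5 rose and Scarb2 fell. That is 2 of 38 risen, against 4.41% of all genes tested, and 1 fallen, against 3.11%. Without Ctss and Laptm5, 1 of 36 rose. When the 4 vector libraries were fitted alone, 14 of the 38 rose and 7 fell. Without Ctss and Laptm5 the risen were 12 of 36: Ctsa, Ctsb, Ctsc, Ctsh, Tpp1, Lgmn, Gla, Man2b1, Idua, Psap, Grn and Npc2. The fallen were Ctsd, Ctsk, Arsa, Asah1, Laptm4a, Cd63 and Scarb2. All genes tested gave 18.5% risen and 22.1% fallen in that fit, so the count of fallen members was near the background and that of risen members somewhat above it. The fit of vector libraries alone has 2 residual degrees of freedom and takes its spread only from vector libraries, which differed little from their partners. With 1 vector library left out, any of the 4, the calls of Man2b1, Laptm5 and Scarb2 were lost in the model of the remaining 7. Fewer of all genes were called in those fits as well. The lone library of that group is then assumed to vary like the others.

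In EphrinB2 cells the model of all 8 libraries gave the same 3 genes and Ctss: Ctss, Laptm5 and Man2b1 rose and Scarb2 fell. The background was 6.36% risen and 5.44% fallen among all genes tested. Without Ctss and Laptm5, 1 of 36 rose here too. With EphrinB2 complete library 2 and osteogenic library 1 left out, which leaves 1 EphrinB2 library per medium and borrows the spread of the vector groups, 9 rose and 6 fell, against a background of 14% and 15.7%. All 9 were among the 14 that rose in the vector libraries alone (9 of 14), and all 6 were among the 7 that fell there (6 of 7). Both fits take their spread from the vector libraries, and the overlap was large for all genes too: 86% of the risen and 86.4% of the fallen in EphrinB2 cells were on the vector list, and 64.9% and 61.5% the other way. The genes on both lists were Ctsa, Ctsb, Ctsc, Ctss, Laptm5, Lgmn, Man2b1, Psap and Tpp1 for the rise, and Asah1, Cd63, Ctsd, Ctsk, Laptm4a and Scarb2 for the fall. The 4 EphrinB2 libraries fitted alone in limma gave 0 calls among the members, against 0.854% risen and 0.323% fallen of all genes, with 3 of 38 at an unadjusted p under 0.05, against 15.4%. Without EphrinB2 osteogenic library 2, by contrast, 17 members rose and 3 fell, against 23.1% and 20.6% of all genes. The count in EphrinB2 cells thus depends on which of the partners is used, and so does the share of all genes called.

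Across the 36 genes the median log2 difference between media was 0.06 in vector cells, against -0.02 over all genes tested, and 0.29 in EphrinB2 cells, against 0.03. Without both libraries that stood apart the EphrinB2 median was 0.03, against -0.01 for all genes. There 21 of the 36 had positive differences, against 49.2% of all genes. With all 8 libraries 26 did, against 52.0%. Groups that do not overlap give a view free of the model, but it includes both libraries that stood apart. In vector cells, both osteogenic libraries lay above both complete libraries for 18 of the 36 genes, against 34.4% of all genes tested. They lay below for 12, against 38.8%. In EphrinB2 cells they lay above for 15, against 24.3%, and below for 4, against 23.6%. In both kinds of cell they lay above for 13 of the 36, against 18.8%. They lay below in both kinds of cell for Asah1, Gaa and Scarb2, 3 of 36, against 19.8%. None of the 36 was above in 1 kind of cell and below in the other, as 1.44% of all genes were. The 13 were the cathepsins Ctsa, Ctsb, Ctsc, Ctsf, Ctsh and Ctsl, the protease Lgmn, the glycosidases Man2b1 and Neu1, and Grn, Npc2, Ppt1 and Psap.

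**Figure D2:**
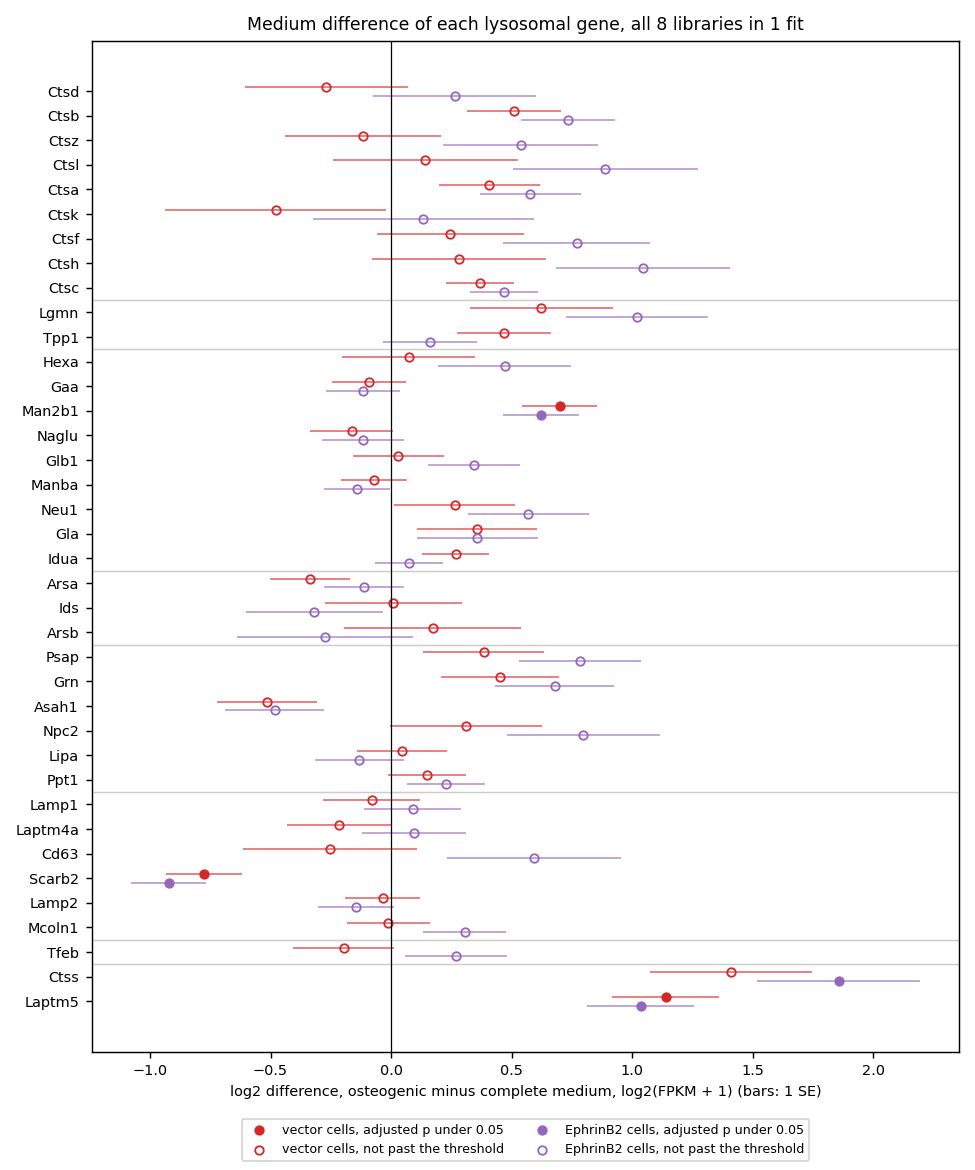
Log2 difference between osteogenic and complete medium for each of the 38 genes, in vector cells (red) and EphrinB2 cells (purple), with bars of 1 SE from the model of all 8 libraries and filled points where the adjusted p was under 0.05. Man2b1 lies to the right and Scarb2 to the left in both kinds of cell, Ctss and Laptm5 lie farthest right in vector cells, and the bars of most other genes are wide.

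Cathepsins are the proteases that do most of the protein breakdown in lysosomes. In vector cells 6 of 9 had positive medium differences, against 47.4% of all genes tested, with a class median of 0.25. Ctsb, a cysteine protease, had the largest of these 6. It stood at 215 and 200.1 FPKM in complete and 287 and 304 in osteogenic medium in vector cells, and at 195 and 177 (complete) and 351 and 273 (osteogenic) in EphrinB2 cells. All 4 osteogenic libraries lay above all 4 complete ones. Its log2 difference in vector cells was 0.51 (SE 0.20 and adjusted p = 0.213 with all 8 libraries, SE 0.06 and adjusted p = 0.00414 with vector libraries alone), and in EphrinB2 cells 0.73 ± 0.20 (adjusted p = 0.0588). Without both libraries that stood apart it was 0.48 ± 0.08 in EphrinB2 cells (adjusted p = 0.0176).

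Ctsa, the carboxypeptidase that also protects neuraminidase and beta-galactosidase, was higher in osteogenic medium too. Vector cells had 53.0 and 49.9 FPKM in complete and 67.7 and 69.3 in osteogenic medium, and EphrinB2 cells 55.5 and 53.5 (complete) and 98.7 and 67.9 (osteogenic). EphrinB2 osteogenic library 1 was far above its partner, and the other osteogenic libraries lay within a narrow band above every complete library. The difference in vector cells was 0.41 (SE 0.21 and adjusted p = 0.371 with all 8 libraries, SE 0.05 and adjusted p = 0.00468 with vector libraries alone). Ctsc, which trims dipeptides from and thereby activates other proteases, rose from 13.6 and 14.4 to 18.2 and 18.4 FPKM in vector cells in the fit of vector libraries alone, and had 11.8 and 10.8 against 16.8 and 15.3 in EphrinB2 cells. Its groups did not overlap between media, and its difference in vector cells was 0.37 (SE 0.14 and adjusted p = 0.207 with all 8 libraries, SE 0.05 and adjusted p = 0.00624 with vector libraries alone).

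Ctsd and Ctsk fell in the vector libraries alone. Ctsd had 507 and 495 FPKM in complete and 396 and 437 in osteogenic medium, a log2 difference of -0.27 (SE 0.34 and adjusted p = 0.797 with all 8 libraries, SE 0.06 and adjusted p = 0.0299 with vector libraries alone). In EphrinB2 cells it had 562 and 392 (complete) and 780.5 and 408 (osteogenic), so the groups overlapped and the mean of the osteogenic group rests on library 1. The exons of Ctsd share 808 bases with Gm49369 on the same strand, whose reads the counting may have divided. Ctsk, the collagen-cleaving protease best known from osteoclasts, had 54.8 and 56.9 FPKM in complete and 42.4 and 37.4 in osteogenic medium in vector cells, a log2 difference of -0.48 (SE 0.46 and adjusted p = 0.704 with all 8 libraries, SE 0.07 and adjusted p = 0.00896 with vector libraries alone). EphrinB2 cells had 71.4 and 25.9 (complete) and 60.1 and 37.3 (osteogenic), with the lowest value of all in complete library 2. Without both libraries that stood apart, the EphrinB2 difference was -0.92 ± 0.10 for Ctsk and -0.46 ± 0.09 for Ctsd.

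The other 4 cathepsins were Ctsf, Ctsh, Ctsl and Ctsz, with means of 15.5 FPKM for Ctsh up to 225.5 for Ctsz. Ctsh rose in the vector libraries alone, with a log2 difference of 0.28 (SE 0.36 and adjusted p = 0.805 with all 8 libraries, SE 0.06 and adjusted p = 0.0215 with vector libraries alone), and the differences of the other 3 ran from -0.12 for Ctsz to 0.24 for Ctsf. Exons of Ctsl share 1742 bases with Gm47123 on the opposite strand and 395 with Gm49230 on the same strand. Those of Ctsa share 819 bases with Neurl2 and Pltp, and those of Ctsb 774 with Fdft1, all on the opposite strand. No strand setting is given for the counting. In EphrinB2 cells all 9 cathepsins had positive differences in the model of all 8 libraries, median 0.58. After removal of the length trend 7 of 9 did, and 6 of 9 without both libraries that stood apart, median 0.11. Among all genes 52.0% were positive in EphrinB2 cells with all 8 libraries and 49.2% without both that stood apart.

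The other proteases were Lgmn and Tpp1. Lgmn, the asparaginyl endopeptidase that processes several cathepsins, had 89.0 and 85.6 FPKM in complete and 134 and 136 in osteogenic medium in vector cells, 1.55 times as much. EphrinB2 cells had 95.3 and 62.5 (complete) and 201 and 124 (osteogenic). Media did not overlap in either kind of cell, and the difference in vector cells was 0.62 (SE 0.30 and adjusted p = 0.322 with all 8 libraries, SE 0.04 and adjusted p = 0.00108 with vector libraries alone). Tpp1, a tripeptidyl peptidase, had 25.0 and 24.8 FPKM in complete and 34.1 and 35.5 in osteogenic medium in vector cells, a difference of 0.47 (SE 0.20 and adjusted p = 0.255 with all 8 libraries, SE 0.04 and adjusted p = 0.00249 with vector libraries alone). In EphrinB2 cells it had 23.6 and 27.0 (complete) and 24.0 and 33.6 (osteogenic). Osteogenic library 1 was at the level of the complete libraries there, and the partner pair without it differed by 0.49 ± 0.06 (adjusted p = 0.00845).

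Man2b1, lysosomal alpha-mannosidase, was the one glycosidase that rose in both kinds of cell in the model of all 8 libraries. The gene lies at chr8:85083270-85098282 on the + strand of GRCm38. Vector cells had 20.6 and 19.0 FPKM in complete and 31.4 and 34.2 in osteogenic medium, and EphrinB2 cells 16.9 and 18.4 (complete) and 25.8 and 29.7 (osteogenic). The means in osteogenic medium were 1.66 and 1.57 times those in complete medium, and no library overlapped between media. The log2 difference was 0.70 in vector cells (SE 0.16 and adjusted p = 0.0435 with all 8 libraries, SE 0.07 and adjusted p = 0.00256 with vector libraries alone) and 0.62 ± 0.16 in EphrinB2 cells (adjusted p = 0.0488), or 0.78 ± 0.10 without both libraries that stood apart (adjusted p = 0.00746). Both calls were near the threshold: over 18 other settings the difference stayed between 0.64 and 0.78 in vector cells and between 0.53 and 0.86 in EphrinB2 cells. Leaving out any 1 vector library or either EphrinB2 complete library put both above 0.05, with adjusted p from 0.0509 to 0.366 in vector cells.

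Gla, alpha-galactosidase A, and Idua, which cleaves iduronic acid from glycosaminoglycans, were lower in level. Gla had 5.0 and 5.28 FPKM in complete and 6.90 and 6.82 in osteogenic medium in vector cells, a difference of 0.36 (SE 0.25 and adjusted p = 0.554 with all 8 libraries, SE 0.06 and adjusted p = 0.00924 with vector libraries alone). EphrinB2 cells had 5.31 and 7.00 (complete) and 10.7 and 6.08 (osteogenic), and these groups overlapped. Idua had 5.68 and 5.97 FPKM (complete) and 7.12 and 7.32 (osteogenic) in vector cells, a difference of 0.27 (SE 0.14 and adjusted p = 0.383 with all 8 libraries, SE 0.05 and adjusted p = 0.0197 with vector libraries alone), and 5.999 and 5.31 (complete) and 5.50 and 6.53 (osteogenic) in EphrinB2 cells, which overlapped too. Both rose in the vector libraries alone and neither passed with all 8.

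The most abundant glycosidases passed neither with all 8 libraries nor in the vector libraries alone. Hexa, the alpha subunit of hexosaminidase, had 104 and 101 FPKM in complete and 104 and 112 in osteogenic medium in vector cells, and 115 and 81.4 (complete) and 170.2 and 106 (osteogenic) in EphrinB2 cells. Its difference in vector cells was 0.07 ± 0.28 (SE with all 8 libraries), smaller than its error. Gaa, the glucosidase that degrades glycogen, had 58.8 and 58.4 FPKM (complete) and 52.4 and 57.6 (osteogenic) in vector cells and 54.5 and 58.4 (complete) and 50.7 and 53.3 (osteogenic) in EphrinB2 cells. All osteogenic libraries of Gaa lay below the complete ones of the same kind of cell, and the difference in vector cells was -0.09 ± 0.15 (0.03 with quantile normalization). Glb1, Manba, Naglu and Neu1 had means from 7.79 to 23.8 FPKM and differences from -0.16 for Naglu to 0.26 for Neu1 in vector cells. None of these 4 passed.

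None of the 3 sulfatases rose in vector cells, and Arsa fell in the vector libraries alone. Arsa, which acts on sulfatides, had 29.1 and 27.7 FPKM in complete and 21.03 and 23.5 in osteogenic medium in vector cells, a difference of -0.34 (SE 0.17 and adjusted p = 0.347 with all 8 libraries, SE 0.07 and adjusted p = 0.0208 with vector libraries alone). EphrinB2 cells had 28.8 and 24.4 (complete) and 26.2 and 22.7 (osteogenic), with overlapping groups. Arsa shares 690 exon bases with C230037L18Rik on the opposite strand. Ids, iduronate sulfatase, was level in vector cells at 24.7 and 25.2 FPKM (complete) and 25.3 and 25.0 (osteogenic). EphrinB2 cells had 23.3 and 26.9 FPKM of Ids (complete) and 14.3 and 27.4 (osteogenic), and only osteogenic library 1 was low. Arsb was low in that library too, with 1.29 FPKM there and 3.07 to 5.32 in the other 7. In vector cells it had 4.24 and 4.01 FPKM (complete) and 4.27 and 5.32 (osteogenic). It shares 2411 exon bases with opposite-strand genes.

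Of the genes grouped as lipid enzymes and cofactors, Psap, Grn and Npc2 were higher and Asah1 was lower in osteogenic medium. Psap had 457 and 443 FPKM in complete and 565 and 611 in osteogenic medium in vector cells, and 445 and 304 (complete) and 728 and 552 (osteogenic) in EphrinB2 cells. Media did not overlap in either, and the vector difference was 0.38 (SE 0.25 and adjusted p = 0.518 with all 8 libraries, SE 0.06 and adjusted p = 0.00846 with vector libraries alone). Grn, the progranulin precursor of lysosomal granulins, had 117 and 125 FPKM (complete) and 156 and 176 (osteogenic) in vector cells, a difference of 0.45 (SE 0.25 and adjusted p = 0.403 with all 8 libraries, SE 0.08 and adjusted p = 0.0118 with vector libraries alone). EphrinB2 cells had 127 and 100 (complete) and 221 and 148 (osteogenic). Npc2, which hands cholesterol on to the lysosomal membrane, had 63.5 and 68.5 FPKM (complete) and 77.3 and 87.2 (osteogenic) in vector cells, a difference of 0.31 (SE 0.32 and adjusted p = 0.727 with all 8 libraries, SE 0.08 and adjusted p = 0.0342 with vector libraries alone). EphrinB2 cells had 73.3 and 52.3 (complete) and 147 and 79.7 (osteogenic), and osteogenic library 1 was far above the other 7 libraries.

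Asah1, acid ceramidase, fell in the vector libraries alone from 101 and 106 to 72.7 and 71.5 FPKM, a difference of -0.52 (SE 0.21 and adjusted p = 0.232 with all 8 libraries, SE 0.05 and adjusted p = 0.00199 with vector libraries alone). EphrinB2 cells had 113 and 80.4 (complete) and 64.7 and 71.5 (osteogenic), a difference of -0.48 ± 0.21 (adjusted p = 0.17), or -0.66 ± 0.06 without both libraries that stood apart (adjusted p = 0.00437). All 4 osteogenic libraries lay below all 4 complete ones. The remaining lipid enzymes were Lipa and Ppt1, with means of 69.4 and 31.9 FPKM. Their vector differences of 0.04 and 0.15 did not pass.

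All 6 membrane proteins had negative medium differences in vector cells, median -0.15, where 47.4% of all genes tested had positive differences. After median rescaling, quantile normalization or removal of the length trend 5 of 6 were negative. Scarb2, Cd63 and Laptm4a fell in the vector libraries alone. In EphrinB2 cells the class median was 0.09 with all libraries, with 4 of 6 positive, against 52.0% of all genes. It was -0.21 without both that stood apart, with 1 of 6 positive, against 49.2%, and -0.18 with quantile normalization. Scarb2 was the 1 of 6 that passed with all 8 libraries, in both kinds of cell. It encodes the receptor that carries glucocerebrosidase to lysosomes by a route without mannose 6-phosphate, and lies at chr5:92441314-92506833 on the - strand. Vector cells had 104 and 110.2 FPKM in complete and 61.6 and 62.5 in osteogenic medium, and EphrinB2 cells 103 and 111 (complete) and 54.3 and 57.9 (osteogenic). The osteogenic means were 0.580 and 0.524 of those in complete medium, and the gap between media was many times that between partners, also in the libraries that stood apart. The log2 difference was -0.78 in vector cells (SE 0.16 and adjusted p = 0.031 with all 8 libraries, SE 0.05 and adjusted p = 0.000822 with vector libraries alone) and -0.92 ± 0.16 in EphrinB2 cells (adjusted p = 0.0136), or -0.82 ± 0.07 without both libraries that stood apart (adjusted p = 0.00304). Over 18 other settings it ran from -0.82 to -0.65 in vector cells and from -1.02 to -0.78 in EphrinB2 cells. Without any 1 vector library the adjusted p was 0.239 to 0.29 in vector cells and 0.058 to 0.0625 in EphrinB2 cells, and without EphrinB2 complete library 2 it was 0.0583 in EphrinB2 cells.

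Cd63, a tetraspanin of late endosomes and exosomes, had 103 and 99.5 FPKM in complete and 84.7 and 84.8 in osteogenic medium in vector cells, a difference of -0.26 (SE 0.36 and adjusted p = 0.831 with all 8 libraries, SE 0.04 and adjusted p = 0.0108 with vector libraries alone). EphrinB2 cells had 108 and 68.8 (complete) and 186 and 91.7 (osteogenic), and osteogenic library 1 had the highest value of all 8. Laptm4a, a small membrane protein, had 289 and 297 FPKM (complete) and 247 and 256 (osteogenic) in vector cells, a difference of -0.22 (SE 0.22 and adjusted p = 0.717 with all 8 libraries, SE 0.05 and adjusted p = 0.0206 with vector libraries alone). EphrinB2 cells had 321 and 246 (complete) and 338 and 266 (osteogenic), which overlapped. Lamp1, a chief glycoprotein of the lysosomal membrane, had 289 and 315 FPKM (complete) and 274 and 297 (osteogenic) in vector cells and 328 and 257 (complete) and 329.5 and 289.7 (osteogenic) in EphrinB2 cells. Media overlapped in both kinds of cell, and the vector difference was -0.08 ± 0.20. Lamp2 and the calcium channel gene Mcoln1 had means of 60.2 and 4.83 FPKM and vector differences of -0.04 ± 0.16 and -0.01 ± 0.17.

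Tfeb, whose protein turns on lysosomal genes and is governed mainly by its place in the cell, had 3.75 and 3.19 FPKM in complete and 2.77 and 3.02 in osteogenic medium in vector cells. EphrinB2 cells had 3.35 and 2.995 (complete) and 5.18 and 3.09 (osteogenic). The medium difference was -0.20 ± 0.21 in vector cells and 0.27 ± 0.21 in EphrinB2 cells, and neither passed (adjusted p = 0.394 in EphrinB2 cells). Only EphrinB2 osteogenic library 1 lay outside 2.77 to 3.75 FPKM. RNA levels do not report the position of the protein.

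**Figure D3:**
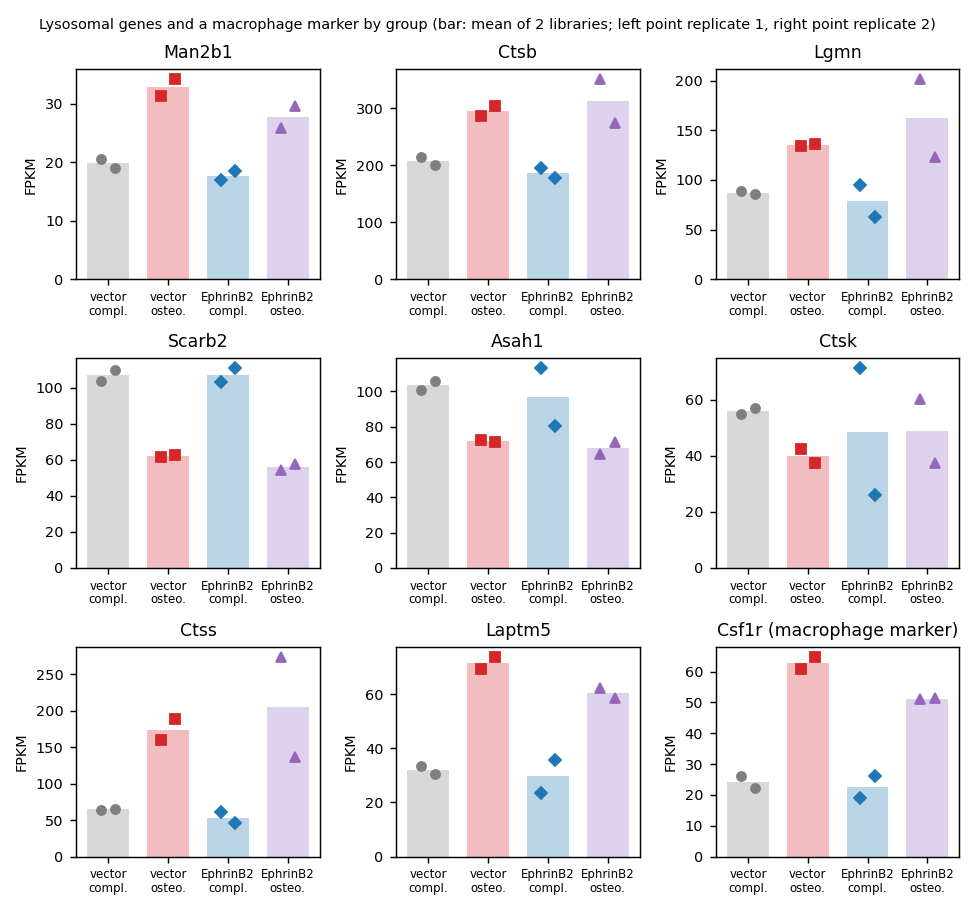
FPKM of 6 lysosomal genes, of Ctss and Laptm5, and of the macrophage marker Csf1r in each group, on axes that start at 0; bars are means of 2 libraries and points are the libraries. Man2b1, Ctsb and Lgmn are higher and Scarb2 and Asah1 lower in osteogenic medium, the EphrinB2 groups of Ctsk overlap, and Ctss, Laptm5 and Csf1r have the steepest bars.

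In vector cells Ctss and Laptm5 differed more between media than any other member. Ctss, a cysteine protease of antigen-presenting cells, had 63.7 and 65.6 FPKM in complete and 159 and 189 in osteogenic medium in vector cells, 2.69 times as much. EphrinB2 cells had 60.9 and 45.9 (complete) and 275 and 137 (osteogenic), 3.86 times as much in the mean and 2.25 times between the libraries that did not stand apart. The log2 difference was 1.41 in vector cells (SE 0.34 and adjusted p = 0.0558 with all 8 libraries, SE 0.09 and adjusted p = 0.000889 with vector libraries alone) and 1.86 ± 0.34 in EphrinB2 cells (adjusted p = 0.0172), or 1.16 ± 0.13 without both libraries that stood apart (adjusted p = 0.00584). Laptm5, a lysosomal membrane protein of blood cells, had 33.4 and 30.5 FPKM (complete) and 69.3 and 73.8 (osteogenic) in vector cells and 23.4 and 35.8 (complete) and 62.2 and 58.4 (osteogenic) in EphrinB2 cells. It rose in both, by 1.14 (SE 0.22 and adjusted p = 0.0271 with all 8 libraries, SE 0.06 and adjusted p = 0.000684 with vector libraries alone) and 1.04 ± 0.22 (adjusted p = 0.0303), the latter 1.29 ± 0.09 without both libraries that stood apart (adjusted p = 0.00218). Laptm5 lost its call in vector cells without any 1 vector library (adjusted p 0.175 to 0.227) and in EphrinB2 cells without any 1 vector library or EphrinB2 osteogenic library 1 (0.0765 to 0.0832). Ctss lost its call in EphrinB2 cells without EphrinB2 complete library 2 (adjusted p 0.108).

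Macrophage markers differed between media as well. Of 22, 9 rose and 0 fell in vector cells and 16 rose and 1, Cx3cr1, fell in EphrinB2 cells in the model of all 8 libraries. Among all genes tested 4.41% rose and 3.11% fell in vector cells, and 6.36% and 5.44% in EphrinB2 cells. These shares apply to the other marker lists below too. Their median log2 difference was 1.16 in vector and 1.64 in EphrinB2 cells, beside medians of 0.06 and 0.29 for the 36 lysosomal genes without Ctss and Laptm5. The EphrinB2 medians without both libraries that stood apart were 1.16 for the markers, of which 17 rose and 1 fell, and 0.03 for the 36 genes. In EphrinB2 cells the summed FPKM of the list was 961.7 to 1894.7 (complete) and 4336.5 to 8674.7 (osteogenic). None of the 22 was at 0 in all libraries. Cd163, at 0.28 and 0.24 FPKM in vector cells in complete and 19.7 and 18.9 in osteogenic medium, Mrc1 and Cd68 had the smallest adjusted p in vector cells, 0.00023, 0.00464 and 0.00487. In bulk libraries, fewer cells of a type and less RNA per cell cannot be told apart, and the part of macrophage RNA in the differences of the lysosomal genes was not tested. The osteoclast markers were low: Acp5 and Mmp9 rose and Atp6v0d2 fell in vector cells, from 0.55 and 0.82 to 7.89 and 7.02 FPKM for Acp5, while Calcr, Ocstamp, Dcstamp and Oscar were below the filter. In EphrinB2 cells 1 of the 4 osteoclast markers tested rose and 1 fell. Their median difference was 0.31 there, or 0.37 without both libraries that stood apart, against 1.14 in vector cells. Of the 9 fibroblast markers, 1 rose and 3 fell in each kind of cell with all 8 libraries. Their median difference was -0.14 in vector and 0.02 in EphrinB2 cells, or -0.16 in the latter without both libraries that stood apart.

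EphrinB2 cells were then set against vector cells in the same medium. None of the 38 passed in complete medium, where 0.0077% of all genes tested did (1 gene), or in osteogenic medium, where 0% did. In complete medium 167 genes and in osteogenic medium 441 genes had an unadjusted p under 0.05, and 0 of the 38 were among them in either. The median over the 36 was -0.10 (complete) and 0.11 (osteogenic), against 0.01 for all genes in both. Without both libraries that stood apart the medians were 0.06 and -0.03, so their sign turned. Quantile normalization also turned the osteogenic median, to -0.15. Both EphrinB2 libraries lay above both vector libraries for 2 of the 36 in complete medium, Ctsa and Gla, against 14.3% of all genes. They lay below for 5 of the 36, Ctsb, Ctsc, Man2b1, Mcoln1 and Arsb, against 11.5%. In osteogenic medium they lay above for 6, Cd63, Ctsh, Ctsl, Ctsz, Laptm4a and Tfeb, against 25.6%, and below for 7, Ctsc, Idua, Lamp2, Lipa, Man2b1, Scarb2 and Tpp1, against 22.3%. The genes on the same side in both media were Ctsc and Man2b1, both below.

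Leaving out EphrinB2 osteogenic library 2 gave 7 calls in osteogenic medium: Cd63, Ctsa, Ctsd, Ctsz and Tfeb higher in EphrinB2 cells, and Arsb and Ids lower, against 12.1% higher and 9.03% lower among all genes. That comparison rests on library 1 alone, and without library 1 instead, 0 members were called. The interaction, which asks whether the medium difference itself differed between kinds of cell, was passed by none of the 38 and by 0% of all genes, with 214 genes and 0 members at an unadjusted p under 0.05. Its median over the 36 was 0.22 with all libraries, -0.07 without both that stood apart and -0.03 with quantile normalization.

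The members show how far both libraries differed from their partners. Between EphrinB2 complete library 2 and library 1 the log2 gap of the 36 genes ran from -1.43 for Ctsk to 0.34 for Gla, with a median of -0.26. Between EphrinB2 osteogenic library 1 and library 2 it ran from -1.24 for Arsb to 1.01 for Cd63, with a median of 0.31. The SD over the 36 genes was 0.40 and 0.51, against 0.08 in both vector pairs. Over all genes tested it was 0.52 and 0.66, against 0.26 (complete) and 0.23 (osteogenic) in the vector pairs. Spearman's rho with exon length was 0.46 and -0.53 over the 36 genes and 0.44 and -0.51 over 12983 genes, as a description across genes that share the same 2 libraries. The members' exons were 1441 to 9552 bases long. The short genes Ctsz, Ctsk and Laptm4a were lower in complete library 2 and higher in osteogenic library 1 than in the partner, and both gaps raise the osteogenic mean over the complete mean.

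**Figure D4:**
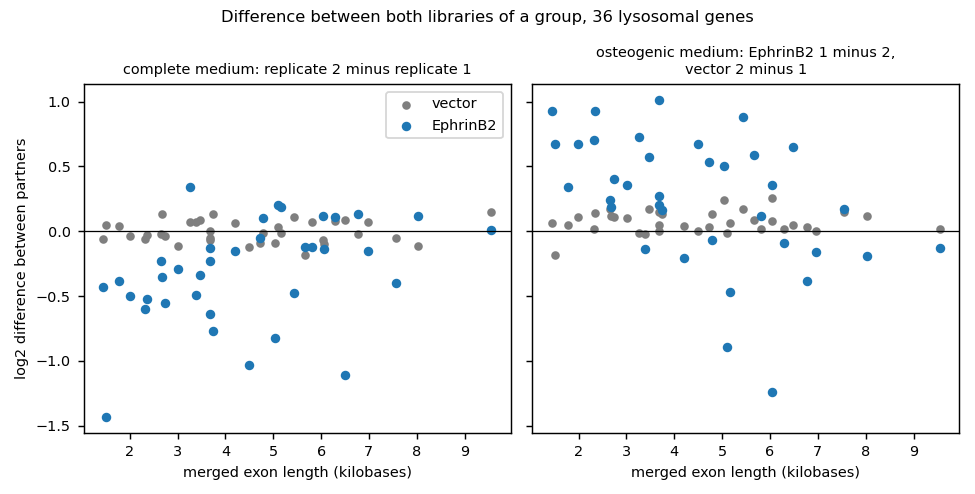
Log2 gap between partner libraries for the 36 lysosomal genes, against merged exon length in kilobases, in complete medium (left) and osteogenic medium (right). Vector pairs (grey) lie within 0.26 of 0, while EphrinB2 pairs (blue) run from -1.43 to 0.34 on the left and from -1.24 to 1.01 on the right, with shorter genes below 0 on the left and above 0 on the right.

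Other genes of the lysosomal pathway are given for comparison. Of 31 further lysosomal hydrolases and membrane proteins tested, 2 rose and 0 fell in vector cells with all 8 libraries (4.41% and 3.11% of all genes), and 11 rose and 3 fell in the vector libraries alone (18.5% and 22.1%). In EphrinB2 cells 4 rose and 0 fell with all 8 libraries (6.36% and 5.44%), and 6 rose and 3 fell without both that stood apart (14% and 15.7%). The same shares of all genes apply to the lists that follow. With all 8 libraries in limma, 2532 of 12994 genes tested had an unadjusted p under 0.05 in vector cells and 3921 in EphrinB2 cells. Ctso, a cathepsin, had 5.49 and 6.69 FPKM in complete and 11.4 and 12.2 in osteogenic medium in vector cells, and rose in both kinds of cell (log2 differences 0.86 and 0.97, adjusted p 0.0164 and 0.00889). Hgsnat, which acetylates heparan sulfate ends, rose in both (0.80 and 0.89, adjusted p 0.0278 and 0.0158). Laptm4b rose in EphrinB2 cells (0.98, adjusted p 0.0215).

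Of the 17 subunits of the V-ATPase, the proton pump that acidifies lysosomes, 0 passed in vector cells with all 8 libraries in limma, with 2 at an unadjusted p under 0.05, and 3 rose and 1 fell in the vector libraries alone. Tcirg1 was the 1 of 17 that rose in EphrinB2 cells (0.75, adjusted p 0.0345) with all 8 libraries, and 2 rose and 0 fell without both that stood apart. Among 7 genes of mannose 6-phosphate tagging and sorting, 0 passed in vector cells with all 8 libraries (3 at an unadjusted p under 0.05), and 2 rose and 2 fell in the vector libraries alone. In EphrinB2 cells Nagpa rose (0.72, adjusted p 0.0333) and Igf2r fell with all 8 libraries, and 2 rose and 2 fell without both that stood apart. Igf2r, the large mannose 6-phosphate receptor, had 38.2 and 36.9 FPKM in complete and 18.1 and 18.6 in osteogenic medium in vector cells. In EphrinB2 cells it had 30.2 and 51.2 (complete) and 5.89 and 14.9 (osteogenic). Its log2 difference was -0.99 in vector cells (adjusted p 0.25 with all 8 libraries and 0.000406 with vector libraries alone) and -1.94 in EphrinB2 cells (adjusted p 0.0287), or -0.97 without both libraries that stood apart.

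Of 7 MiT/TFE factors and their nutrient regulators tested, 0 passed with all 8 libraries (1 at an unadjusted p under 0.05 in each kind of cell), and Mitf and Flcn rose in the vector libraries alone (0.70 and 0.38, adjusted p 0.00525 and 0.0122). In EphrinB2 cells 2 rose and 0 fell without both libraries that stood apart. Of 14 autophagy genes, 0 passed in vector cells with all 8 libraries (2 at an unadjusted p under 0.05), and 4 rose and 3 fell in the vector libraries alone. Gabarapl1 and Bnip3 rose in EphrinB2 cells with all 8 libraries (0.81 and 0.75, adjusted p 0.0227 and 0.0265), and 3 rose and 2 fell without both that stood apart. Of 4 cathepsin inhibitors, 0 passed in vector cells with all 8 libraries (0 at an unadjusted p under 0.05), and 3 rose in the vector libraries alone. Cst3, the secreted inhibitor cystatin C, was the 1 of 4 that rose in EphrinB2 cells, both with all 8 libraries (1.82, adjusted p 0.0334) and without both that stood apart. It had 548 and 531 FPKM in complete and 963 and 1082 in osteogenic medium in vector cells. Without both libraries that stood apart the Cst3 difference in EphrinB2 cells was 0.91.

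The 12 members with the CACGTG core in their promoter window, grouped by it, had a median medium difference of 0.01 in vector cells, from -0.34 to 0.62, and the 21 without it 0.07, from -0.78 to 0.70. In EphrinB2 cells the medians were 0.33 and 0.23, or 0.01 and 0.10 without both libraries that stood apart. In the vector libraries alone 3 of the 12 rose and 2 fell, and 7 of the 21 rose and 4 fell, against 18.5% and 22.1% of all genes. Lamp1, with the 4 cores printed above, and Mcoln1, whose protein lets calcium out of lysosomes, had vector differences of -0.08 and -0.01.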

How the data were processed

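The deposited table gives FPKM for 54532 Ensembl genes in 8 libraries. The authors' tools were HISAT2 2.0.5 and CASAVA per the submitters' processing notes, with featureCounts 1.5.0-p3 for counting, DESeq2 1.16.1 and build mm10. Annotation release, strand setting and filters: not given in the sources used here. Without a strand setting, reads of overlapping genes cannot be told apart. GENCODE M21 (GRCm38, which is mm10) supplied symbols, places and exon lengths; 54409 identifiers matched and 123 did not. Library depth follows from the spacing of low values, which were whole reads for 98.13% to 98.33% of genes under 50 reads, and sets counting error only.

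The filter kept 12994 genes that reached 1 FPKM in 2 or more libraries. Values were log2(FPKM + 1); fold changes use this scale and are understated for low genes. One limma 3.58.1 model (R 4.3.3) fitted a mean for each of the 4 groups, with a mean-variance trend, 4 residual degrees of freedom, a prior of 2.72 and two-sided moderated tests. P-values were Benjamini-Hochberg adjusted over all genes tested, threshold 0.05, and "rose" and "fell" are used for what passed in the fit named. The scripts were tested on simulated data. Replicate numbers follow listing order and pair nothing. Members, gene lists and tests were chosen with earlier results of these data known. Library values are given for every member that passed with all 8 libraries or with vector libraries alone (up to 4 per class by adjusted p), for the 2 most abundant of each class, and for Tfeb, Ctss and Laptm5. Other lists described are given by counts and, except for fibroblast markers, up to 3 members that passed. Endothelial, smooth muscle and pericyte, cardiomyocyte, lymphocyte and adipocyte marker lists are not described. They summed to at most 15.4 FPKM per library, for cardiomyocyte markers in EphrinB2 osteogenic cells. Promoter windows and motif matches are from RefSeq on GRCm38.p6. Other pseudocounts, filters, scalings, a length correction, library weights and libraries left out were tried.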

Additional observations from a re-analysis of the deposited data

How the results depend on the processing

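Ctss and Laptm5 are counted among the members here. The number of members called changed with the libraries in the fit, their weights and the filter. The share of all genes called (in brackets) moved too. No share is given here for the fits with 1 library left out. The number of all genes called varied widely among those fits as well. Their ranges of member counts therefore cannot be read as particular to the members. In vector cells, 2 rose (4.41%) and 1 fell (3.11%) with all 8 libraries. Without a filter on low values 0 rose (1.49%), with quantile normalization 0 fell (3.73%), with library weights 13 rose (20.4%) and 5 fell (22.1%), and with only the groups compared, or without both libraries that stood apart, 14 rose (18.5%) and 7 fell (22.1%). Leaving out 1 library at a time gave 0 to 4 risen and 0 to 1 fallen. In EphrinB2 cells, 3 rose (6.36%) and 1 fell (5.44%) with all 8. Without a filter 0 rose (1.89%), with the length trend removed 6 rose (8.65%), with library weights 0 rose (1.49%) and 0 fell (1.09%), with only the groups compared 0 rose (0.854%) and 0 fell (0.323%), and without both libraries that stood apart 9 rose (14%) and 6 fell (15.7%). Leaving out 1 library at a time gave 1 to 17 risen and 0 to 3 fallen. EphrinB2 against vector in complete medium and the interaction gave 0 members under every setting run. In osteogenic medium members were called only without EphrinB2 osteogenic library 2, where the share of all genes called rose too. The cause of these shifts was not tested. No call of Man2b1, Scarb2, Ctss or Laptm5 changed sign in any of 18 settings each. No paired analysis was possible because the labels give no replicate numbers that tie libraries across groups. With 2 libraries a group, members that missed the threshold are not shown to be unchanged, and genes below about 10 FPKM (Tfeb, Arsb, Mcoln1, Gla, Idua, Neu1 and Manba) carry the fewest reads.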
